A study of Mus musculus with 6 samples.

Results

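The genes described here are the receptors for glutamate, GABA, glycine and acetylcholine, as transcribed in neural stem cell cultures of the adult mouse subventricular zone (SVZ). They were chosen by name: every protein-coding gene whose symbol belongs to the Gria, Grik, Grin, Grid, Grm, Gabr, Gabbr, Glra, Glrb, Chrn or Chrm families, which gave 74 of the 55802 genes listed. They comprise 4 AMPA, 5 kainate, 7 NMDA, 2 delta and 8 metabotropic glutamate receptor genes, 19 GABA-A and 2 GABA-B genes, 5 glycine receptor genes, 16 nicotinic and 5 muscarinic genes. The name pattern also took in Grid2ip, which encodes a protein that binds the delta receptor rather than a receptor, and left out 2 non-coding genes. Primary cells from adult C57BL/6 mice were kept in Neuralbasal medium with B27 and infected with adenovirus, for which the labels give 24 h. The control group (genotype WT, n = 3) received an adenovirus with green fluorescent protein, ADV-GFP, and the SETD4 OE group (n = 3) an adenovirus that also carried SETD4, ADV-SETD4-GFP. SETD4 belongs to the proteins with a SET domain, most of which methylate lysines. All libraries therefore came from virus-infected cells, and no uninfected group was compared. The labels number the samples of a group but do not say whether they came from separate animals or cultures, so p-values measure the spread between these samples.

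Fast transmission runs through ligand-gated channels, which are assembled from several subunits around a pore. AMPA, kainate and NMDA receptors pass cations when glutamate binds, GABA-A and glycine receptors pass chloride, and nicotinic receptors pass cations when acetylcholine binds. Metabotropic glutamate, GABA-B and muscarinic receptors act more slowly through G proteins. In the SVZ, GABA and glutamate released by neuroblasts and neurons act on stem cells and astrocytes, and local cholinergic neurons release acetylcholine. Neural stem cells and astrocytes are known to carry GABA-A, AMPA, kainate and metabotropic glutamate receptors.

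Setd4 was at 1.15 ± 0.329 FPKM in control libraries and 325 ± 26.4 FPKM in SETD4 OE (mean ± SD, n = 3 each). FPKM is reads per length of gene, scaled to the depth of the library. Whole reads could be worked out from it, and the libraries held 14924273 to 18078717 reads. Mitochondrially encoded genes took 3.78% of the reads in control replicate 1, against 2.45% in each of the other controls and 3.52% to 3.73% in SETD4 OE. Of 9 marker genes of astrocytes and quiescent neural stem cells all reached 1 FPKM and 8 were higher in SETD4 OE, with sums of 866 to 914 FPKM in control libraries and 2328 to 2415 FPKM in SETD4 OE. Stem and progenitor genes summed to 1204 to 1272 and 998 to 1044 FPKM, with 3 of 6 higher, Sox2 and Egfr among them, and Nes, Vim and Mki67 lower. The 7 markers of oligodendrocyte precursors summed to 21.9 to 24.6 FPKM and 58.4 to 60.7 FPKM, with 6 higher. The 6 of oligodendrocytes summed to 9.94 to 11.8 and 25.8 to 27.5 FPKM, and the 4 that reached 1 FPKM were higher. Mog and Mobp, under 1 FPKM, were higher with limma-voom on reads (adjusted p = 3.84e-04 and 5.94e-05). Ependymal markers summed to 20.9 to 26.1 and 51.8 to 69.6 FPKM, with 4 of 5 higher. The fifth, Ccdc153, averaged under 1 FPKM and was higher with limma-voom (adjusted p = 1.30e-03). Of 7 neuroblast markers 4 reached 1 FPKM. The list summed to 103 to 112 FPKM and 78.6 to 88.0 FPKM, most of it Cd24a, which fell. With limma-voom on reads, Dcx (0.533 and 1.45 FPKM) and Nrxn3 (0.436 and 0.839 FPKM) were higher (adjusted p = 2.35e-06 and 1.4e-04). In that fit Sp8 (2.02 and 1.43 FPKM) was lower (adjusted p = 0.0448), and Dlx1, Dlx2 and Dlx5 did not pass. Of 9 neuronal markers 4 reached 1 FPKM. Their sums were 40.5 to 44.6 and 43.9 to 51.1 FPKM, with Rbfox3, Snap25, Syt1 and the vesicular transporters Slc17a7 and Slc32a1 all at a mean under 0.5 FPKM. Most of each sum was Map2 (29.1 and 30.9 FPKM), which did not pass. With limma on log2(FPKM + 1), Tubb3 rose (5.66 and 8.69 FPKM, adjusted p = 6.63e-03) and Stmn2 fell (2.48 and 1.29 FPKM, adjusted p = 4.60e-03). Rbfox3 was higher with limma-voom (adjusted p = 8.00e-03). Microglial and endothelial markers summed to at most 1.65 and 0.799 FPKM in any library, and Cldn5 had no reads. The part these differences play in the receptor results was not tested. In bulk RNA, more cells of a type and more RNA per cell cannot be told apart.

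Promoter sequences are shown for 4 members described below: Chrna4, with the largest rise among members of at least 1 FPKM, Grm3, the only such member that fell in the main test, and the muscarinic genes Chrm2 and Chrm3, which moved in opposite directions. Each is a window of 300 bases, from 250 before to 50 after a transcription start, from RefSeq on GRCm38.p6. The expression tables use mm39, so these positions are not those of the tables. Capitals mark the GC box, GGGCGG on either strand, the binding sequence of Sp-family factors.
Chrna4 (chr2:181039128-181039427, minus strand): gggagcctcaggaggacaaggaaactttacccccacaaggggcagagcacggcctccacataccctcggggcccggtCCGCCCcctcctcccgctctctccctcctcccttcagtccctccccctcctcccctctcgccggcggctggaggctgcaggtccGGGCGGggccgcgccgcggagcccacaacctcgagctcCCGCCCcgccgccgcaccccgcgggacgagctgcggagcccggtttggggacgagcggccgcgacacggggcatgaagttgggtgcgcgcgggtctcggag
Grm3 (chr5:9725303-9725602, minus strand): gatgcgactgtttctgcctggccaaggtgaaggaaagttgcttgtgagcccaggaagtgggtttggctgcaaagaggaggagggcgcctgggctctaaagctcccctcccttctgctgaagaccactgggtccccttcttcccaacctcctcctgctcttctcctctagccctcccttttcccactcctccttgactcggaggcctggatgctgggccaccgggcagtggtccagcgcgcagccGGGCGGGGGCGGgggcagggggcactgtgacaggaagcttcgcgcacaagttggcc
Chrm2 (chr6:36387834-36388133, plus strand): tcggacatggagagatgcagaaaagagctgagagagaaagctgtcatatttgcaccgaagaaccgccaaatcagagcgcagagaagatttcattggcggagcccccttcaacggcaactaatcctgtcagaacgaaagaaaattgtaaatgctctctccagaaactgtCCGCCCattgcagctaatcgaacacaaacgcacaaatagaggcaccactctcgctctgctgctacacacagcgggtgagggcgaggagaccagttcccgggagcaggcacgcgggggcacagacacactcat
Chrm3 (chr13:10360754-10361053, minus strand): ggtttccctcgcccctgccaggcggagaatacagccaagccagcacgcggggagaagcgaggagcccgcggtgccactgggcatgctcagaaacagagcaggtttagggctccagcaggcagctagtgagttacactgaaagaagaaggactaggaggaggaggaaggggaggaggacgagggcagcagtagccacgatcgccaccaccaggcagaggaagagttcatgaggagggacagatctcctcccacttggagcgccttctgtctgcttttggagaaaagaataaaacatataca
The Chrna4 window held 3 GC boxes and 33 CG dinucleotides, Grm3 2 and 11, Chrm2 1 and 16, and Chrm3 no GC box and 11 CG dinucleotides. Of 74 members 53 had a RefSeq window, and 32 of their 62 windows held a GC box (51.6%), compared with 35.7% of all 32851 windows. The median window held 12 CG dinucleotides among the members and 7 among all genes. These are descriptions of sequence and carry no test.

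Few of the 74 genes were well expressed. Averaged over the 6 libraries, 20 reached 1 FPKM, and 8 had no read in any library. The most abundant was Gabbr1 (47.5 and 44.7 FPKM in control and SETD4 OE), followed over all 6 libraries by Grik5 (19.6 and 23.8), Grm5 (20.7 and 18.4) and Grm3 (13.3 and 6.27). Summed over all members, the level was 151 ± 1.15 FPKM in control libraries and 176 ± 5.73 FPKM in SETD4 OE. By class, the nicotinic sum went from 4.03 ± 0.259 to 13.8 ± 0.721 FPKM, a ratio of 3.42, and the AMPA sum from 19.1 ± 1.33 to 29.3 ± 2.28 FPKM. Chrna4 alone held 50.7 ± 3.61% of the nicotinic sum in the controls and 71.6 ± 0.942% in SETD4 OE. The metabotropic glutamate sum went the other way, from 34.3 ± 3.01 to 25.3 ± 1.93 FPKM. The GABA-B sum, nearly all Gabbr1, was 48.0 ± 2.71 and 46.9 ± 1.92 FPKM, with overlapping groups. The class sums are descriptions and were not tested.

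**Figure D1:**
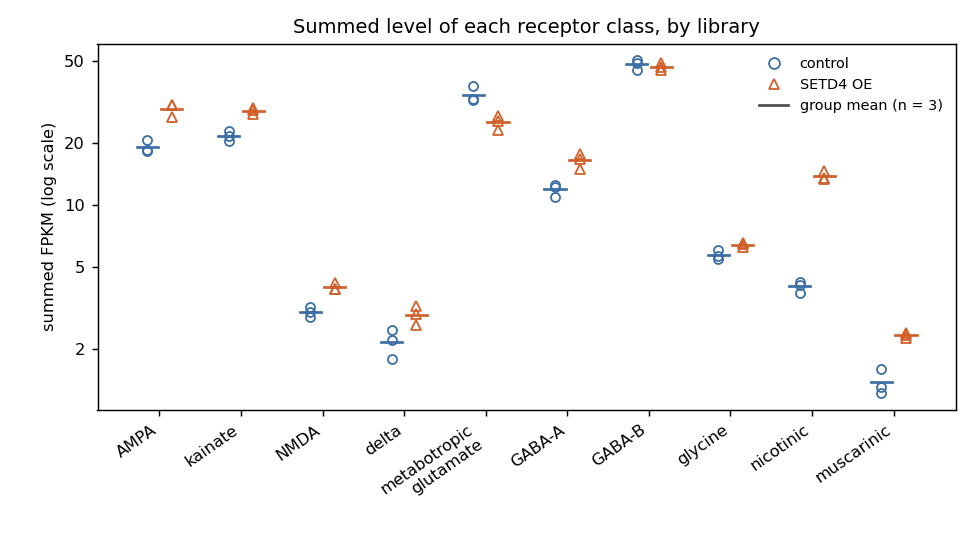
Summed FPKM of each receptor class (log axis) in every library, with controls as circles, SETD4 OE as triangles and the mean of each group (n = 3) as a bar. The nicotinic sums lay at 3.75 to 4.25 FPKM in control libraries and 13.3 to 14.6 FPKM in SETD4 OE, and the metabotropic glutamate sums at 32.5 to 37.8 and 23.2 to 27.02 FPKM.

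Among the 20 members that entered the test across all genes (limma on log2(FPKM + 1), Benjamini-Hochberg adjustment), 14 were higher in SETD4 OE, 1 was lower and 5 did not pass. Of all 12994 tested genes 26.0% were higher, 33.9% lower and 60.0% called in either direction. The median log2 fold change was 0.36 over the 20 members and -0.06 over all tested genes. The groups did not overlap for 18 of the 20, against 66.0% of all tested genes. With libraries scaled to equal sums, the median of all genes moved by 0.11 and 4261 genes were higher and 3351 lower, where the scaling as deposited gave 3384 and 4406, while 15 members were higher and 1 lower. Without control replicate 1, which stood apart in its mitochondrial share, 13 members were higher and 1 lower. Since many members lie below 1 FPKM, the recovered reads were also fitted with limma-voom, which took the 43 members that averaged 10 or more reads per library. There 25 were higher and 5 lower, where all 15645 genes of that fit gave 29.3% higher and 30.7% lower. Its log2 fold changes are not compressed by the added 1 and are named as limma-voom values below. Of the 23 fitted members under 1 FPKM, 11 were higher (47.8%) and 3 lower (13.0%). Among all genes under 1 FPKM in that fit 37.4% were higher and 8.34% lower, or 45.8% in either direction. Of the 20 fitted members above 1 FPKM, 14 were higher and 2 lower, where all genes above 1 FPKM gave 27.3% and 36.0%, or 63.4% together.

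**Figure D2:**
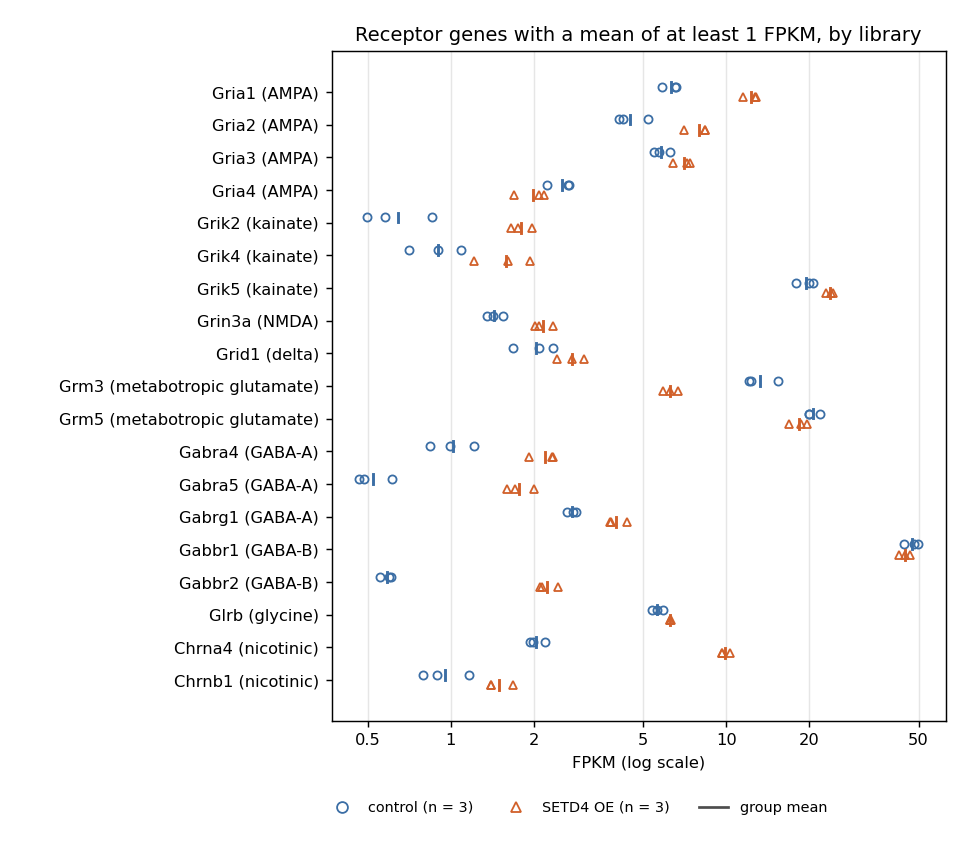
FPKM (log axis) of 19 receptor genes that averaged 1 FPKM or more, in each library, with controls as circles, SETD4 OE as triangles and group means as bars. Gabbr1, Grm5 and Grik5 are the most abundant, and Chrna4 and Gabbr2 show the widest gaps between groups.

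AMPA receptors carry most fast excitatory transmission, and their 4 subunit genes were all present. Gria1 (ENSMUSG00000020524, chromosome 11, 56902213 to 57221070, plus strand, mm39) was at 6.50, 6.57 and 5.84 FPKM in control libraries and 12.7, 12.9 and 11.5 FPKM in SETD4 OE. All 3 SETD4 OE values were above all controls (log2 fold change 0.87, SE 0.07, adjusted p = 5.1e-05). Gria2, whose RNA-edited subunit makes the channel nearly impermeable to calcium, was at 5.21, 4.07 and 4.21 FPKM in control libraries and 8.38, 8.39 and 7.06 FPKM in SETD4 OE (log2 fold change 0.71, adjusted p = 8.67e-04). Gria3 rose by less, from 5.81 ± 0.415 to 7.01 ± 0.511 FPKM (log2 fold change 0.23, adjusted p = 0.0293). Omitting any of 4 libraries ended that call, with an adjusted p of 0.0884 for control replicate 2, 0.0874 for control replicate 3, 0.0992 for SETD4 OE replicate 1 and 0.0817 for SETD4 OE replicate 2. With no filter it was 0.0648. Gria4 was at 2.68, 2.23 and 2.66 FPKM in control libraries and 2.09, 2.18 and 1.70 FPKM in SETD4 OE, lower without overlap but not past the test (log2 fold change -0.24, adjusted p = 0.0733). With limma-voom it passed (log2 fold change -0.35, adjusted p = 0.0388), a call lost when any of control replicates 1 and 3 or SETD4 OE replicates 1 and 3 was left out (0.0610 to 0.179) and with upper-quartile scaling (0.0943). The make-up of the class therefore differed between the groups. Gria1 held 33.0 ± 2.45% of the AMPA sum in the controls and 42.2 ± 0.782% in SETD4 OE, Gria2 23.4 ± 1.59% and 27.1 ± 0.536%, Gria3 30.4 ± 0.549% and 23.9 ± 0.356%, and Gria4 13.2 ± 1.18% and 6.77 ± 0.387%. These shares do not depend on the scaling of a library. For each of the 4 subunits the shares of the groups did not overlap. The shares of a class are tied to one another, so these are not 4 separate results. In FPKM, the groups did not overlap for 66.0% of all tested genes.

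Kainate receptors combine Grik1, Grik2 or Grik3 with the high-affinity subunits Grik4 and Grik5, which need a partner to form channels. Grik5 was by far the highest, at 17.99, 19.97 and 20.75 FPKM in control libraries and 24.4, 23.0 and 24.1 FPKM in SETD4 OE, and rose by 0.27 on the log2 scale (SE 0.07, adjusted p = 9.42e-03). Of its possible partners, all far lower, Grik2 and Grik3 rose and Grik1 did not pass. Grik2 was at 0.853, 0.493 and 0.574 FPKM and then 1.65, 1.97 and 1.75 FPKM (log2 fold change 0.77, adjusted p = 1.14e-03, and 1.52 with limma-voom). Grik3, under 1 FPKM, had 57, 66 and 77 reads in the controls and 197, 179 and 198 in SETD4 OE (limma-voom log2 fold change 1.57, SE 0.16, adjusted p = 3.14e-06). The Grik5 to Grik2 ratio was 21.1, 40.5 and 36.1 in the controls and 14.7, 11.7 and 13.7 in SETD4 OE. Control replicate 1 lay nearest to the treated libraries. Grik4 rose from 0.897 ± 0.192 to 1.58 ± 0.363 FPKM (log2 fold change 0.44, adjusted p = 0.0281, and 0.83 with limma-voom). The call ended when control replicate 2 (adjusted p = 0.0845), control replicate 3 (0.0678), the first SETD4 OE library (0.0928) or the third (0.0714) was omitted, with quantile normalization (0.0797) and with no filter (0.0795). With limma-voom it held when any library was omitted. Grik1 had 3 to 23 reads in the controls and 7 to 19 in SETD4 OE.

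NMDA receptors require the Grin1 subunit, joined by Grin2 or Grin3 subunits, and act as coincidence detectors at synapses. All 7 genes were low. Grin3a, whose subunit lowers calcium flow, was the only one above 1 FPKM and held 47.4 ± 3.60% of the class sum in the controls and 53.8 ± 2.53% in SETD4 OE. It was at 1.42, 1.35 and 1.55 FPKM and then 2.02, 2.36 and 2.09 FPKM (log2 fold change 0.37, adjusted p = 7.65e-03, and 0.59 with limma-voom). The obligatory Grin1 had 37, 37 and 27 reads in the controls and 58, 56 and 42 in SETD4 OE, or 0.210 ± 0.0321 and 0.337 ± 0.0666 FPKM. Its limma-voom call (log2 fold change 0.66, adjusted p = 0.0411) ended when control replicate 2 (0.0716), control replicate 3 (0.135), the first SETD4 OE library (0.125) or the second (0.109) was omitted. Grin3a stood at 7.00 ± 1.59 times the level of Grin1 in the controls and 6.58 ± 1.37 times in SETD4 OE. Grin2a had 18, 29 and 22 reads and then 10, 15 and 7 (limma-voom log2 fold change -1.08, adjusted p = 0.0278). Its adjusted p was 0.0807 with control replicate 2 omitted, 0.0541 with control replicate 3 omitted, and 0.0718 and 0.128 with the first or the third SETD4 OE library omitted. The other Grin2 genes did not pass. Grin2b had 122 to 150 reads in the controls and 123 to 132 in SETD4 OE, and its limma-voom log2 fold change of -0.02 had a 95% interval of -0.35 to 0.32. Grin2c and Grin2d were at 0.04 (95% interval -0.44 to 0.52) and 0.08 (-0.63 to 0.79). Grin3b, at 13, 10 and 6 reads and then 8, 11 and 30, overlaps exons of Tmem259 (27.2 FPKM) on the other strand. No strand setting was given in the sources used here, so its reads may include those of that gene.

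Delta receptors act as synaptic organisers more than as channels. Grid1 rose from 2.04 ± 0.336 to 2.75 ± 0.311 FPKM (log2 fold change 0.31, adjusted p = 0.0445). The call ended when control replicate 1 (0.106), control replicate 2 (0.0796), the second SETD4 OE library (0.130) or the third (0.0982) was omitted, with quantile normalization (0.102), and with a filter at 0.1 FPKM (0.0637) or none (0.117). Grid2ip, the scaffold gene taken in by name, had 11, 6 and 7 reads and then 18, 12 and 21 (limma-voom log2 fold change 1.11, adjusted p = 0.0352), a call lost without control replicates 2 or 3 or SETD4 OE replicates 1 or 3 (0.0833 to 0.130) and with a filter at 3 reads (0.0526).

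The metabotropic class was almost entirely Grm5 and Grm3, the Gq-coupled and Gi-coupled receptors typical of astroglia. Grm3 (ENSMUSG00000003974, chromosome 5, 9535541 to 9775170, minus strand) was at 15.4, 12.3 and 12.1 FPKM in control libraries and fell to 6.25, 6.67 and 5.89 FPKM in SETD4 OE (log2 fold change -0.97, SE 0.10, adjusted p = 1.61e-04). It was the only member of at least 1 FPKM to fall in the main test, and its call held under every alternative tried. Grm5 (chromosome 7, 87233376 to 87784115) was at 21.9, 20.02 and 20.1 FPKM and then 18.7, 19.7 and 16.9 FPKM. Its log2 fold change of -0.16 (95% interval -0.33 to 0.01, adjusted p = 0.0980) did not pass, and it was 0.0090 with quantile normalization. With limma-voom it passed only with SETD4 OE replicate 2 omitted (log2 fold change -0.22, adjusted p = 0.0281). The Grm5 to Grm3 ratio, which a library's scaling does not touch, was 1.57 ± 0.130 in the controls and 2.94 ± 0.0650 in SETD4 OE, with no overlap. Grm4 had 16 to 28 reads in the controls and 26 to 43 in SETD4 OE, just short of the test with limma-voom (log2 fold change 0.77, adjusted p = 0.0540). It passed with control replicate 2 (0.0454) or SETD4 OE replicate 3 (0.0182) omitted and with upper-quartile scaling (0.0400). The 5 other genes of the class averaged under 10 reads, and Grm8 had the most of them, with at most 13 in a library.

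**Figure D3:**
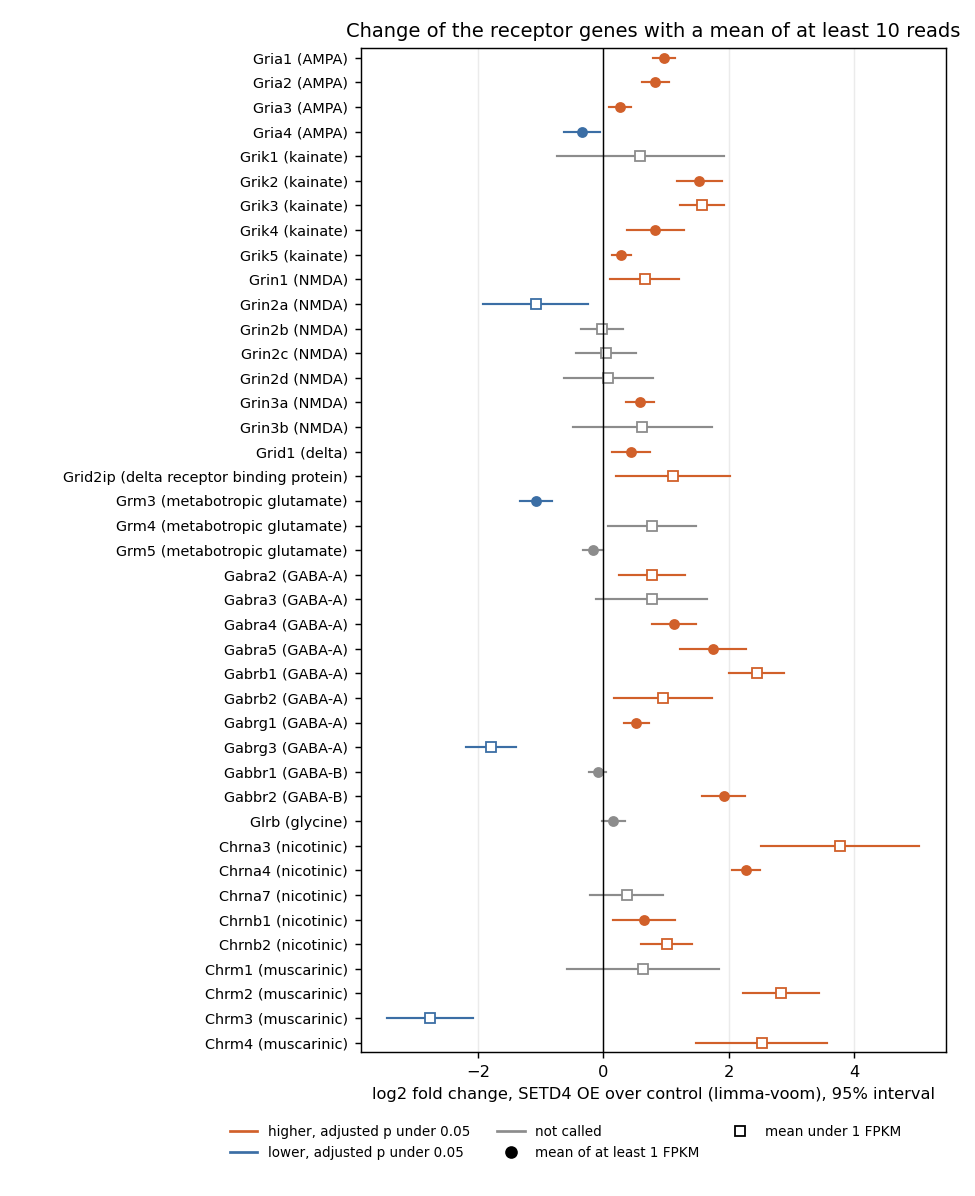
Log2 fold change with its 95% interval (limma-voom) for 41 receptor genes that averaged 10 or more reads per library, with filled circles for a mean of at least 1 FPKM and open squares for less. Of these, 24 lie to the right with an adjusted p under 0.05 and 5 to the left: Gria4, Grin2a, Grm3, Gabrg3 and Chrm3.

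GABA-A receptors are chloride channels built mostly from alpha, beta and gamma subunits. Gabrg1, a gamma subunit found in glia, was among the most abundant of the 19 genes. Gabrg1 rose from 2.86, 2.78 and 2.65 to 3.79, 4.37 and 3.81 FPKM, a log2 fold change of 0.41 (SE 0.07, adjusted p = 2.48e-03). The alpha subunits Gabra4 and Gabra5 rose as well. Gabra4 went from 1.01 ± 0.185 to 2.20 ± 0.249 FPKM (log2 fold change 0.67, adjusted p = 1.55e-03, and 1.12 with limma-voom). Gabra5, the alpha subunit of many extrasynaptic receptors, went from 0.483, 0.612 and 0.465 FPKM to 2.00, 1.71 and 1.59 FPKM (log2 fold change 0.86, adjusted p = 4.03e-04, and 1.74 with limma-voom).

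Below 1 FPKM, the beta subunit gene Gabrb1 had 88, 49 and 73 reads in the controls and 387, 346 and 340 in SETD4 OE (limma-voom log2 fold change 2.44, SE 0.20, adjusted p = 3.65e-07). Gabrg3, the other gamma subunit with reads to speak of, went the opposite way, from 230, 194 and 221 reads to 64, 57 and 57 (limma-voom log2 fold change -1.80, SE 0.18, adjusted p = 2.48e-06). Thus 2 gamma subunits changed in opposite directions, Gabrg1 up and Gabrg3 down. Gabra2 had 42 to 48 reads and then 62 to 100 (limma-voom log2 fold change 0.77, adjusted p = 0.0143, and 0.0573 without SETD4 OE replicate 2, its highest library). Gabrb2 had 10 to 17 reads and then 19 to 31 (0.95, adjusted p = 0.0352), a call that ended when control replicate 2 (0.154), the first SETD4 OE library (0.0985) or the third (0.0995) was omitted. Gabra3 did not pass, with 7 or 8 reads in each control and 10 to 15 in SETD4 OE. The 10 others, among them Gabra6 and Gabrd of cerebellar granule cells, averaged under 10 reads, and Gabra6 and Gabrp had none.

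Members that lie side by side on a chromosome did not all move together. Runs of members were taken as neighbours less than 1000000 bases apart on mm39, and 3 of the 10 runs are described here. On chromosome 5, from 70908390 to 72306380, Gabrg1, Gabra2, Gabra4 and Gabrb1 lie in that order, and all 4 were higher in SETD4 OE with limma-voom. Gabra4 and Gabrb1 overlap by their exons on opposite strands, so their reads may be mixed there. On chromosome 7, from 56366213 to 57159807, Gabrg3 fell and its neighbour Gabra5 rose. On chromosome 9, from 54888164 to 54956063, the nicotinic genes Chrna5, Chrna3 and Chrnb4 are all low. Chrna3 rose from 0, 2 and 2 reads to 24, 19 and 15, while Chrna5 (6, 7 and 7 reads, then 12, 17 and 10) and Chrnb4 (0, 2 and 1, then 18, 9 and 10) had too few reads for the fit. For each of the 3 the SETD4 OE libraries lay above the controls, on few reads. The groups also did not overlap for 66.0% of all genes tested with limma, which average 1 FPKM or more.

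**Figure D4:**
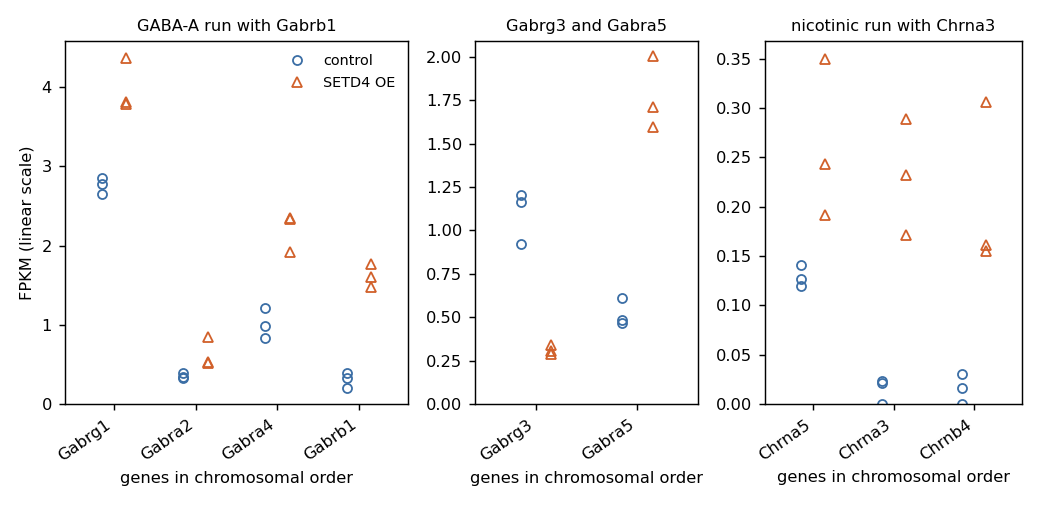
FPKM (linear axis from 0, a different scale in each panel) of members that are neighbours at 3 places, in chromosomal order, with controls as circles and SETD4 OE as triangles. All 4 genes of the Gabrb1 run are higher in SETD4 OE, Gabrg3 is lower and Gabra5 higher, and the Chrna3 run reaches at most 0.350 FPKM.

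GABA-B receptors need both Gabbr1, which binds GABA, and Gabbr2, which couples to the G protein and carries Gabbr1 to the cell surface. The 2 genes differed widely in level and in response. Gabbr1 (chromosome 17, 37356858 to 37385959, plus strand) was at 44.4, 49.7 and 48.2 FPKM in control libraries and 46.7, 42.5 and 44.8 FPKM in SETD4 OE, with overlapping groups. Its log2 fold change was -0.09 (95% interval -0.24 to 0.07, adjusted p = 0.290), and it turned to 0.05 with equal sums and 0.10 with quantile normalization. Gabbr2 (ENSMUSG00000039809, chromosome 4, 46662305 to 46991873, minus strand) was at 0.607, 0.595 and 0.555 FPKM and rose to 2.10, 2.44 and 2.14 FPKM, a log2 fold change of 1.02 (SE 0.09, adjusted p = 8.95e-05) and of 1.92 with limma-voom. Per length, Gabbr1 exceeded Gabbr2 by 73.2, 83.6 and 86.9 times in the controls and by 22.2, 17.4 and 21.0 times in SETD4 OE.

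Glycine receptors are built from alpha subunits, which bind glycine, and the beta subunit Glrb, which anchors the receptor to gephyrin. Only Glrb was expressed, at 5.91, 5.59 and 5.36 FPKM in control libraries and 6.25, 6.30 and 6.27 FPKM in SETD4 OE. The groups did not overlap, but the difference did not pass (log2 fold change 0.14, adjusted p = 0.0736). It passed with equal sums (0.25, adjusted p = 0.0111), median-of-ratios scaling (0.19, 0.0256), quantile normalization (0.16, 0.0416) and without control replicate 1 (0.17, 0.0464). The 4 alpha genes Glra1, Glra2, Glra3 and Glra4 had at most 6 reads in a library. Glra1 had none, and a count of 0 allows up to 3 reads in a library, counting error alone.

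Nicotinic receptors of the brain are most often built of Chrna4 with Chrnb2, or of Chrna7 alone. Chrna4 (ENSMUSG00000027577, chromosome 2, 180660173 to 180685339, minus strand) had the largest rise of the members above 1 FPKM. It was at 2.20, 1.98 and 1.94 FPKM, or 177, 175 and 155 reads, in the controls, and at 10.3, 9.64 and 9.69 FPKM, or 819, 752 and 811 reads, in SETD4 OE (log2 fold change 1.84, SE 0.06, adjusted p = 2.38e-06, and 2.28 with limma-voom). Its partner Chrnb2 had 61, 85 and 50 reads and then 118, 115 and 145 (limma-voom log2 fold change 1.01, SE 0.19, adjusted p = 5.08e-04). Chrnb2 shares exon sequence with Adar (7.08 FPKM) on the other strand, so its reads may be mixed. The Chrna4 to Chrnb2 ratio was 4.48 ± 0.922 in the controls and 10.6 ± 1.15 in SETD4 OE. Chrna7 had 24 to 31 reads in the controls and 32 to 34 in SETD4 OE and did not pass (limma-voom log2 fold change 0.37, 95% interval -0.21 to 0.95).

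Of the subunits known from muscle, Chrnb1 was expressed and rose from 0.888, 1.17 and 0.795 FPKM to 1.68, 1.40 and 1.40 FPKM (log2 fold change 0.36, adjusted p = 0.0284, and 0.65 with limma-voom). It did not pass with control replicate 1 (adjusted p = 0.0673), control replicate 3 (0.0917), the first SETD4 OE library (0.0935) or the third (0.0510) omitted, nor with quantile normalization (0.112) or no filter (0.0776). Its muscle partners Chrna1, Chrnd, Chrng and Chrne had 0 to 9 reads in a library, and Chrnd and Chrng had none. Chrne had 0, 0 and 2 reads in the controls and 9, 4 and 9 in SETD4 OE. Chrna3, a subunit of autonomic ganglia, was the remaining nicotinic gene in the limma-voom fit (log2 fold change 3.78, SE 0.58, adjusted p = 9.75e-05), from 4 reads over the 3 controls and 58 over SETD4 OE. Without control replicate 1, the library with no read, its log2 fold change was 3.02 and still passed. Chrna6, Chrna9 and Chrnb3 had no reads, and Chrna2 and Chrna10 at most 6 in a library.

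Muscarinic receptors are G protein-coupled, with Chrm1, Chrm3 and Chrm5 acting through Gq and Chrm2 and Chrm4 through Gi. None of the 5 genes reached a mean of 1 FPKM, and yet the class changed its make-up. Chrm3 led in the controls, with 98, 92 and 96 reads, and fell to 10, 10 and 22 reads in SETD4 OE (limma-voom log2 fold change -2.76, SE 0.31, adjusted p = 6.73e-06). Chrm2 rose from 13, 17 and 15 reads to 93, 100 and 128 (log2 fold change 2.83, SE 0.28, adjusted p = 1.89e-06). Chrm4 rose from 2, 3 and 6 reads to 22, 23 and 18 (2.52, SE 0.48, adjusted p = 5.52e-04). In FPKM, Chrm3 held 67.9 ± 10.3% of the class sum in the controls and 5.90 ± 2.52% in SETD4 OE, Chrm2 10.9 ± 1.18% and 47.2 ± 5.15%, and Chrm4 10.8 ± 4.94% and 39.4 ± 6.99%. In these libraries the Gq-coupled Chrm3 went down while both Gi-coupled genes went up. Chrm1 had 3, 19 and 22 reads and then 18, 15 and 18, with control replicate 1 far below the rest, and did not pass. Chrm5 had at most 1 read. The calls of Chrm2, Chrm3 and Chrm4 held under every alternative of the limma-voom fit.

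**Figure D5:**
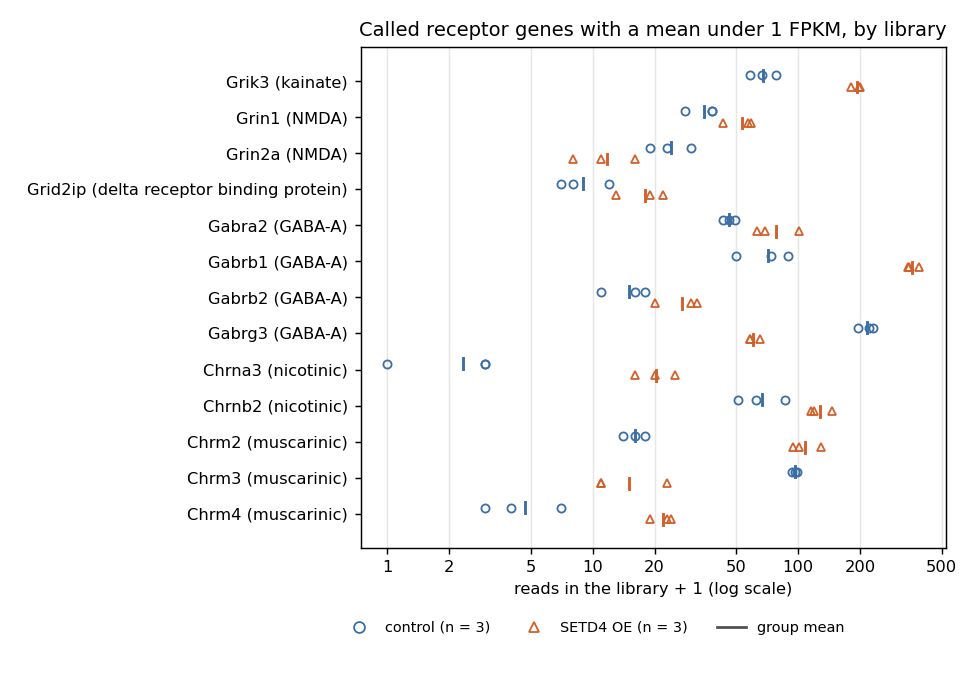
Reads per library plus 1 (log axis) of 13 members with a mean under 1 FPKM that passed with limma-voom, with controls as circles, SETD4 OE as triangles and group means as bars. Grin2a, Gabrg3 and Chrm3 are lower in SETD4 OE and the other 10 higher. The groups do not overlap for any of the 13, but these were chosen for passing, so that adds nothing to the calls. Among all genes tested with limma, 66.0% had groups without overlap. Those genes average 1 FPKM or more, so none of the 13 is among them.

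Other genes of these transmitter systems were read from the same test as a list of 76. Of 51 that reached 1 FPKM, 28 rose, 11 fell and 12 did not pass, with a median log2 fold change of 0.25. Over all tested genes 26.0% were higher, 33.9% lower and 60.0% called. The calls of Dlg4, Shank3, Grip1, Gabarapl2 and Gldc did not hold under every alternative, and those of the other listed genes did. Among auxiliary subunits 10 of 16 rose and 3 fell. Cacng4, an AMPA receptor partner of the stargazin family, rose from 12.5 ± 0.471 to 32.0 ± 1.42 FPKM (log2 fold change 1.29), Kctd12, an auxiliary subunit of GABA-B receptors, from 9.57 ± 0.309 to 17.2 ± 0.384 FPKM, and Ric3, a nicotinic receptor chaperone, from 3.69 ± 0.357 to 5.99 ± 0.506 FPKM. Neto2, an auxiliary subunit of kainate receptors, fell from 69.6 ± 6.56 to 27.01 ± 2.55 FPKM (-1.33), although all 4 kainate genes that passed had risen. The AMPA partners Cacng8 (17.1 ± 3.40 to 7.36 ± 1.14 FPKM) and Shisa6 (4.26 ± 0.121 to 2.07 ± 0.271 FPKM) also fell. Within the stargazin family, then, Cacng8 fell while Cacng4 rose, as did Cacng5 (means of 62.1 and 92.1 FPKM) and Cacng7 (38.8 and 53.8 FPKM). Cacng5 and Cacng7 were named after their values were seen.

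Of 16 scaffold and trafficking genes 5 rose, 4 fell and 7 did not pass, a share of calls near the 60.0% of all tested genes. Gabarapl1 rose from 35.2 ± 2.97 to 58.6 ± 1.85 FPKM and Gabarap from 114 ± 7.29 to 165 ± 5.89 FPKM. Both encode small proteins of the autophagosome membrane that were first linked to GABA-A receptor traffic. Homer2, a scaffold of group I metabotropic receptors, rose (log2 fold change 0.62) while its relative Homer1 fell (-0.46). The postsynaptic scaffolds Dlg1 and Dlg4 fell by 0.36 and 0.28 on the log2 scale, and Dlg4 did not pass with equal sums (adjusted p = 0.0708). Gephyrin (Gphn), the anchor of glycine and GABA-A receptors, was at 15.7 ± 1.39 and 17.2 ± 1.70 FPKM and did not pass. It was named after its value was seen.

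Transporters and enzymes that clear or make the transmitters mostly rose. The glial glutamate transporter gene Slc1a2 rose from 25.6 ± 2.63 to 89.2 ± 4.07 FPKM (log2 fold change 1.77), the glycine transporter gene Slc6a9 from 3.54 ± 0.189 to 8.45 ± 0.410 FPKM and the GABA transporter gene Slc6a11 from 47.2 ± 0.978 to 82.8 ± 0.518 FPKM. Slc1a4, a neutral amino acid transporter, fell from 50.4 ± 1.39 to 25.6 ± 0.625 FPKM. Of 6 tested transporters 4 rose and 1 fell. Abat, which breaks down GABA, rose from 11.7 ± 0.497 to 34.1 ± 0.116 FPKM, and Glul, which turns glutamate into glutamine, from 108 ± 4.98 to 234 ± 6.73 FPKM. The GABA-synthesising enzymes parted: Gad1 went from 0.628 ± 0.0230 up to 1.65 ± 0.134 FPKM and Gad2 from 1.76 ± 0.208 down to 0.447 ± 0.101 FPKM. Shmt1 and Shmt2, which make glycine from serine, fell by 1.02 and 0.65 on the log2 scale. Of 13 tested enzymes and ligands 9 rose and 3 fell. The acetylcholine-synthesising enzyme gene Chat had no read in any library, and its vesicular transporter gene Slc18a3 was at a mean of at most 0.0175 FPKM in either group.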

How the data were processed

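RNA of 6 libraries was compared, 3 control and 3 SETD4 OE, grouped and numbered by the sample titles. The submitters' processing notes name HISAT2 2.0.5 and mm39. How reads were counted, with which annotation release and strand setting, is not given in the sources used here. Per the file headers, the deposited tables, 1 per group, hold FPKM with gene coordinates and gene lengths. Multiplied by gene length, 100% of the FPKM values were whole multiples of a step per library (tolerance 0.05 reads). This gave each gene's reads and the total by which the authors had scaled. Summed reads differed from that size by 0.634% to 2.75% in the controls and by -5.04% to -3.69% in SETD4 OE.

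For the main test, log2(FPKM + 1) of the genes averaging 1 FPKM or more was fitted with limma 3.58.1 (R 4.3.3), with its intensity trend, two-sided, and p-values were adjusted by Benjamini-Hochberg over all tested genes at 0.05. Fold changes on this scale understate the change of low genes. Reads were fitted with limma-voom, with the authors' library sizes, for genes averaging 10 or more reads. Libraries of a group differed by more than counting error: chi-square over degrees of freedom of their reads was 3.89 to 16.3 within groups and 92.8 to 121 between them. On simulated reads with 200 genes changed 2-fold, the limma step recovered 95.0% of the changed genes among 13029 tested and called 7 unchanged genes, and limma-voom recovered 90.6% among 15653 tested and called 11 unchanged. The simulation gave every gene and library the same spread beyond counting error. In the data the spread was uneven and 60.0% of genes were called, so these rates may not hold there.

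The members and lists were chosen with earlier results of these data known. The text names the members averaging 1 FPKM or more and those below it that passed with limma-voom. A few members count in the totals and are not reported here singly. The others are given by class, and listed genes of the transmitter systems by the largest called changes in each sub-list, up to 3 in each direction. Exon overlaps were looked up by gene identifier in GENCODE M21, and promoter windows came from RefSeq. Figures were drawn with matplotlib 3.10.9.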

Additional observations from a re-analysis of the deposited data

How the results depend on the processing

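Of the 15 members called with limma, 11 kept their direction and call under every alternative that tested them, and 20 of the 30 called with limma-voom did so. The count of 15 of 20 became 23 of 47 with a mean of at least 0.1 FPKM (3 lower) and 6 of 10 with at least 5 FPKM (5 higher). With limma-voom it was 30 of 43 (25 higher, 5 lower). Other genes are tested in these 3 settings. Over all genes, the calls there were 8700 of 20432, 5256 of 8057 and 9385 of 15645. Lower calls were 3 of 66 members with no filter and 2 of 20 with quantile normalization, where Gria4 joins Grm3. Of all genes, 4054 of 30911 and 3778 of 12994 were lower in those settings. With at least 5 FPKM, 1881 of all 8057 tested genes were higher and 6 of 35 listed transmitter genes lower. Leaving out a library gave 12 to 14 called members (11 to 13 higher, 1 lower), and with limma-voom 23 to 28 (20 to 23 higher, 3 to 6 lower). With the same omissions 6683 to 7840 of all genes were called (2895 to 3316 higher, 3788 to 4524 lower).

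Sign changes were seen only in members that did not pass. Gabbr1 went to 0.045 with equal sums and 0.10 with quantile normalization, and Grm5 to 0.0090 with quantile normalization. With limma-voom, Grin2b went to 0.051 with upper-quartile scaling. With a library left out, Chrm1 ranged from -0.19 to 1.11 and Grik1 from -0.062 to 1.27. Turned values were 0.044 and 0.086 for Grin2b, -0.077 and -0.018 for Grin2c, and -0.080 and -0.046 for Grin2d. The cause was not tested. Same-numbered libraries did not deviate together (correlations of -0.0661, -0.229 and 0.0768), and differently numbered ones gave -0.247 to 0.3. The values thus gave no sign of pairing by number, which so few libraries cannot exclude. With the replicate number as a block 6941 genes and 14 members were called (13 higher), with limma-voom 30 (26 higher). Under the block Chrnb1 (adjusted p = 0.0578) and, with limma-voom, Gria4 (0.0663) did not pass, and Grm4 did (0.0470). Depth limits the 31 members under 10 reads, which the limma-voom fit left out. With 3 or more reads it took 52 members and called 31 (26 higher). With limma-voom, Gria3, Grid1 and Chrnb1 also lost their calls when some libraries were left out (adjusted p of 0.0601 for Gria3 without SETD4 OE replicate 1, 0.0554 and 0.0654 for Grid1 without control replicate 1 or SETD4 OE replicate 2, and 0.0593, 0.102 and 0.0900 for Chrnb1 without control replicates 1 or 3 or SETD4 OE replicate 1).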
